A study of Drosophila melanogaster with 6 samples.

Results

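The citrate cycle enzymes are the mitochondrial enzymes that oxidise acetyl units to carbon dioxide and pass the electrons to the respiratory chain, considered here with the cytosolic malate dehydrogenase. The genes were kdn, mAcon1, Idh3a, Idh3b, Idh3g, Scsalpha1, ScsbetaA, ScsbetaG, Mdh2 and Mdh1. A gene's probe sets were those whose only gene symbol in the platform annotation was that gene's. Of these 10 genes, 8 had at least 1 such probe set, and they had 10 of the 18952 probe sets on the array between them. Citrate synthase (kdn) and the mitochondrial malate dehydrogenase (Mdh2) matched no probe set in that annotation and were not analysed here.

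Heart/nephrocyte complexes were dissected from adult female Drosophila melanogaster after 21 days on food with an added sugar. On 3 arrays the food held 0.1 M glucosamine, and on the other 3 it held 1.0 M sucrose. The labels give neither a strain nor a genotype, and flies on plain food were not analysed here. Each difference is therefore one between 2 supplements given at different molar concentrations. The labels name 30 females but do not tie them to single arrays or say that the arrays came from separate cohorts. The p-values therefore reflect the spread among these arrays, part or all of which may be technical.

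In the cycle, citrate synthase joins acetyl-CoA to oxaloacetate, aconitase rearranges the citrate, and isocitrate and oxoglutarate dehydrogenases each release carbon dioxide and make NADH. Succinyl-CoA synthetase then makes a nucleoside triphosphate directly, and succinate dehydrogenase, fumarase and malate dehydrogenase regenerate oxaloacetate. Muscle, including heart muscle, is known for a high demand on this pathway.

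The arrays had similar overall brightness, with upper quartiles of intensity between 222 and 237. Labelled heart and nephrocytes were both represented: Hand, whose product regulates genes in heart and pericardial cells, had intensities of 7976 to 9942 in glucosamine arrays and 12941 to 16538 in sucrose arrays. Of 8 nephrocyte markers, 6 fell, a share of 75% beside the 8.61% of everything tested that fell. The summed intensity of these 8 was 6688 to 8417 in glucosamine arrays and 23657 to 38527 in sucrose arrays. Of 14 tested muscle and heart markers 1 fell, Hand, a share of 7.14%, near that of everything tested. Only 2 of the 14 log2 differences were negative, beside 53.6% of all differences. Their median was 0.23, and −0.03 over all tested. The summed intensity of that list overlapped, at 47588 to 73783 in glucosamine arrays and 53884 to 67168 in sucrose arrays. Some arrays carried transcripts of neighbouring organs. The gut trypsin gene alphaTry had an intensity of 2111 in glucosamine replicate 3, against 24.7 to 290 in the other glucosamine arrays and 38.3 to 273 in the sucrose arrays. The oocyte gene osk had 6355 in sucrose replicate 1 and 942 in sucrose replicate 2, against 224 to 340 in the other 4 arrays. In the same list bcd went the other way, at 45.2 to 70.9 in glucosamine arrays and 32.8 to 35.9 in sucrose arrays. Cp36 of that list had 988 in sucrose replicate 1 and 207 in glucosamine replicate 1, against 9.70 to 21.8 in the other 4 arrays. The summed gut list was 225 to 3763 in glucosamine arrays and 209 to 509 in sucrose arrays, with Jon25Bi, Jon65Ai and Try29F below an intensity of 16 on every array. The summed ovary list was 432 to 582 in glucosamine arrays and 338 to 8010 in sucrose arrays, with vas below 16 throughout. Sums of fat body markers overlapped, at 90042 to 100101 in glucosamine arrays and 91262 to 111091 in sucrose arrays. Within that list Lsp2 had 13987 in sucrose replicate 2, against 4037 and 4897 in the other sucrose arrays and 1627 to 5646 in glucosamine arrays. The dim Fbp1 and Fbp2 were also highest in sucrose replicate 2, at 21.5 and 47.2, but apolpp, Yp1, Yp2 and Yp3 were not. Sums of neurons and glia overlapped, at 311 to 573 in glucosamine arrays and 316 to 453 in sucrose arrays. Hemocyte sums were 8914 to 17789 in glucosamine arrays and 7800.2 to 11246 in sucrose arrays. Of 27 tested markers in these 5 lists limma called none, and 3 had an unadjusted p under 0.05, all higher, while 16.6% of everything tested was higher at that level. Of 4 tracheal and epidermal markers tested, serp rose, beside 9.93% of everything tested. The list's sums overlapped, at 219 to 346 in glucosamine arrays and 158 to 283 in sucrose arrays. The signal of the 5′ control probe set relative to the 3′ one was lower in every glucosamine array for eIF-4a, GAPDH and 18S rRNA, by 0.75, 0.15 and 0.12 on the log2 scale, while actin overlapped. The part of cell composition and RNA quality in the results that follow was not tested.

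Transcripts of 3 of the 8 citrate cycle genes fell in glucosamine-fed flies: Idh3g, Scsalpha1 and ScsbetaG. Their mean intensities were 53.1%, 62.7% and 57.4% of those in sucrose-fed flies. None of the 8 rose, and the other 5 did not pass the test. Each difference is the glucosamine mean less the sucrose mean of log2(intensity + 16), tested with limma with Benjamini-Hochberg adjustment over the 10021 genes and unnamed probe sets that passed a filter on dim probe sets, at a threshold of 0.05. All 8 genes passed that filter. The 3 genes that fell were 37.5% of the 8, and 8.61% of everything tested fell, while 9.93% rose. The median log2 difference was −0.52 over the 8 genes and −0.03 over all tested. Every one of the 8 differences was negative, as were 53.6% of all differences. For 7 of the 8 genes, all glucosamine arrays lay below all sucrose arrays, and 20.0% of everything tested did so. In RNA from a mixed tissue, fewer cells of a type and less RNA per cell cannot be told apart.

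**Figure D1:**
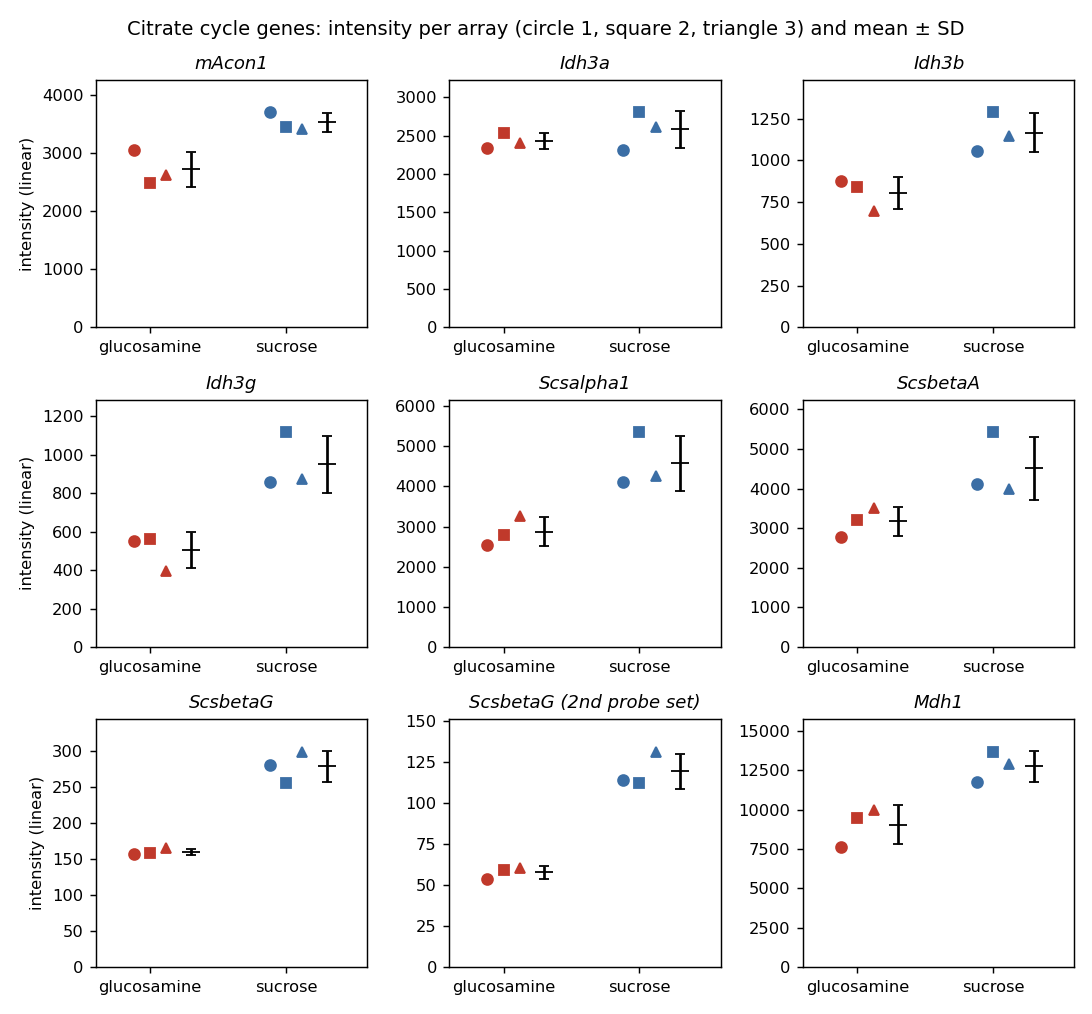
Deposited intensity of each citrate cycle gene on a linear axis that starts at 0, with glucosamine arrays (red) left of sucrose arrays (blue), the symbol giving the replicate number and the black bar the mean ± SD of 3 arrays. Glucosamine and sucrose arrays overlap for Idh3a and are separate in every other panel, including both bright probe sets of ScsbetaG.

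The first enzyme of the cycle measured here was mitochondrial aconitase. mAcon1 (CG9244, probe set 1634989_at), which encodes it and whose product carries an iron-sulphur cluster, had intensities of 3045, 2485 and 2612 in glucosamine arrays and 3701, 3447 and 3417 in sucrose arrays. The groups did not overlap, and the sucrose arrays lay close together. The log2 difference was −0.38 ± 0.14 (SE), which did not pass (limma adjusted p = 0.110). Its 95% confidence interval of −0.71 to −0.05 belongs to this gene alone, without adjustment for the other genes tested.

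The NAD-dependent isocitrate dehydrogenase is built of alpha, beta and gamma subunits, and in mammals the alpha subunit carries the catalytic site while the others take part in assembly and allosteric control. Idh3a (CG12233, probe set 1634846_a_at), the gene of the alpha subunit, had intensities of 2335, 2540 and 2411 in glucosamine arrays and 2320, 2810 and 2617 in sucrose arrays. The groups overlapped, the lowest array of all being a sucrose one. Its log2 difference was −0.08 ± 0.14 (SE; limma adjusted p = 0.714), with a 95% confidence interval of −0.41 to 0.24.

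Idh3b (CG6439, probe set 1629745_at), of the beta subunit, had intensities of 876, 843 and 698 in glucosamine arrays and 1059, 1290 and 1147 in sucrose arrays. All glucosamine arrays were lower, with means of 806 ± 94.7 and 1165 ± 117 (SD, n = 3 each) in glucosamine-fed and sucrose-fed flies. The log2 difference of −0.53 ± 0.15 (SE) lay just outside the threshold, with a limma adjusted p of 0.0591.

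Idh3g (CG5028, probe set 1629691_at), of the gamma subunit, had intensities of 552, 563 and 398 in glucosamine arrays and 857, 1120 and 873 in sucrose arrays. The highest glucosamine array was well below the lowest sucrose array, and glucosamine replicate 3 was the lowest of all. Means were 504.4 ± 92.2 and 950.2 ± 147 (SD, n = 3 each) in glucosamine-fed and sucrose-fed flies, and the log2 difference was −0.90 ± 0.19 (SE; limma adjusted p = 0.0241), the largest fall among the 8 genes. The call was lost without glucosamine replicate 1 or 3 or without any 1 sucrose array, where the difference was −0.97 to −0.74 and the adjusted p 0.0504 to 0.0696.

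The differences of the 3 subunit genes ran from −0.90 to −0.08, and the ratio between them was compared array by array. This comparison was chosen after the values were seen. A ratio between probe sets has no absolute meaning, so each is given relative to the mean of the sucrose arrays. The log2 ratio of Idh3g to Idh3a was −0.62, −0.71 and −1.12 in glucosamine arrays and 0.01, 0.12 and −0.13 in sucrose arrays. That of Idh3b to Idh3a was −0.26, −0.44 and −0.63 in glucosamine arrays and 0.02, 0.02 and −0.04 in sucrose arrays. Both ratios were lower in all 3 glucosamine arrays, and for both the greatest shift was in replicate 3. The log2 ratio of Idh3g to Idh3b was also lower, by 0.37, without overlap. The exact permutation test, two-sided, gave p = 0.1 for each of these 3 ratios, the smallest value that 3 arrays against 3 allow, and 0.15 after adjustment over 6 subunit pairs, so none passes a threshold of 0.05.

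Succinyl-CoA synthetase pairs 1 alpha subunit with either of a pair of beta subunits. The beta subunit sets the nucleotide: the enzyme with ScsbetaA makes ATP, and the one with ScsbetaG makes GTP. Scsalpha1 (CG1065, probe set 1638529_at), which encodes the shared alpha subunit, had intensities of 2553, 2791 and 3267 in glucosamine arrays and 4098, 5359 and 4268 in sucrose arrays. The groups were separate, and sucrose replicate 2 was the highest. Means were 2870.3 ± 364 and 4575 ± 684 (SD, n = 3 each) in glucosamine-fed and sucrose-fed flies, and the log2 difference was −0.67 ± 0.17 (SE; limma adjusted p = 0.0394). Scsalpha1 passed in none of the 6 fits that each left out 1 array, where the difference was −0.76 to −0.55 and the adjusted p 0.0551 to 0.123.

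ScsbetaA (CG11963, probe set 1630433_at) had intensities of 2790, 3215 and 3518 in glucosamine arrays and 4125, 5431 and 3987 in sucrose arrays. The gap between the highest glucosamine and the lowest sucrose array was smaller than the spread within the sucrose arrays. The log2 difference was −0.50 ± 0.18 (SE), which did not pass (limma adjusted p = 0.100).

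ScsbetaG (CG10622) was measured by 3 probe sets. The brightest, 1626745_at, had intensities of 157, 158 and 165 in glucosamine arrays and 281, 256 and 299.5 in sucrose arrays. The glucosamine arrays lay within a narrow band, at a mean of 160.1 ± 4.42 against 279 ± 21.7 (SD, n = 3 each) in sucrose-fed flies. The log2 difference was −0.74 ± 0.13 (SE; limma adjusted p = 0.0124), the smallest adjusted p of the 8 genes. ScsbetaG also passed in each of the 6 fits without 1 array, with an adjusted p of 0.0312 to 0.0493.

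A second probe set of ScsbetaG, 1637251_a_at, had intensities of 53.3, 59.1 and 60.3 in glucosamine arrays and 114, 112 and 131 in sucrose arrays. Its log2 difference was −0.88 ± 0.13 (SE; limma adjusted p = 0.00783) when all 11020 probe sets above the filter were tested separately, where 8.28% of them fell. Both probe sets had their 3 glucosamine arrays close together and far below the sucrose arrays. The third, 1635682_at, lay near the lowest deposited intensity of 4.32 on every array, at 4.57 to 5.04 in glucosamine arrays and 4.57 to 4.78 in sucrose arrays, and was not tested. It carries no information on the gene's change.

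The same ratios were taken within succinyl-CoA synthetase. Relative to the sucrose mean, the log2 ratio of ScsbetaA to Scsalpha1 was 0.15, 0.23 and 0.13 in glucosamine arrays and 0.03, 0.04 and −0.07 in sucrose arrays. The glucosamine arrays were all above the sucrose arrays, by 0.17 on average (exact permutation p = 0.1, and 0.15 adjusted over the 6 pairs). As 0.1 is the smallest value possible here too, this ratio could not have passed a threshold of 0.05. The ratios of ScsbetaG to Scsalpha1 and to ScsbetaA overlapped between groups, with shifts of −0.08 and −0.24 (exact permutation p = 0.7 and 0.4). Sucrose replicate 2 was the lowest array in both of these ratios. Whether shifts in this enzyme differed from those in isocitrate dehydrogenase was not tested.

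**Figure D2:**
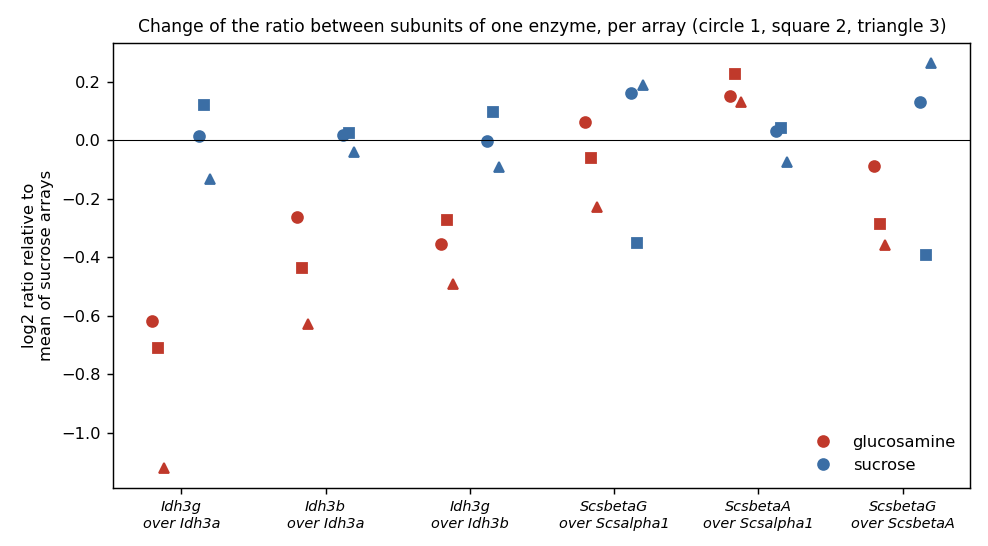
Log2 ratio of one subunit's probe set to another's on each array, relative to the mean of the sucrose arrays, for 3 pairs of isocitrate dehydrogenase and 3 pairs of succinyl-CoA synthetase, with glucosamine arrays (red) left of sucrose arrays (blue). Every glucosamine array is below every sucrose array for the isocitrate dehydrogenase pairs and above for ScsbetaA over Scsalpha1, and the groups overlap for both other pairs.

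The cytosolic malate dehydrogenase, encoded by Mdh1 (CG5362, probe set 1637847_at), interconverts malate and oxaloacetate outside the mitochondria and serves the malate-aspartate shuttle, which carries reducing equivalents across the inner membrane. Its intensities were 7628, 9463 and 9999 in glucosamine arrays and 11739, 13694 and 12880 in sucrose arrays. No arrays overlapped, and the means were 9030.0 ± 1243 and 12771 ± 982 (SD, n = 3 each) in glucosamine-fed and sucrose-fed flies. The log2 difference of −0.51 ± 0.16 (SE) did not pass (limma adjusted p = 0.0704), although it passed with a variance trend and a robust prior, at an adjusted p of 0.0339.

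**Figure D3:**
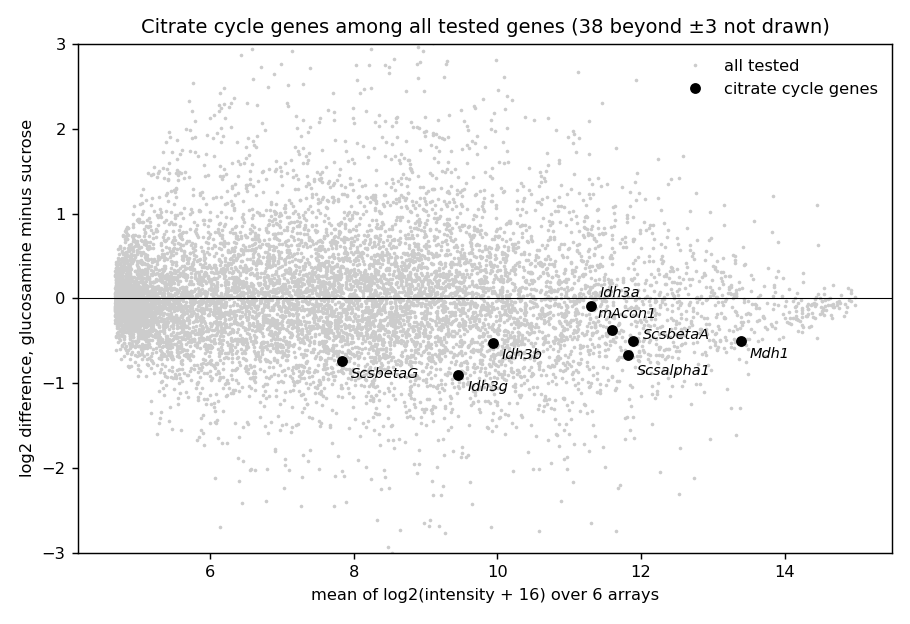
Log2 difference, glucosamine minus sucrose, of each tested gene or unnamed probe set (grey) against its mean log2(intensity + 16) over 6 arrays, with the citrate cycle genes in black and 38 points beyond ±3 not drawn. All 8 citrate cycle genes lie below 0, Idh3a at −0.08 nearest to it and Idh3g at −0.90 farthest from it.

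The 7 genes whose groups did not overlap, 4 of which did not pass, had mean intensities of 53.1% to 77.1% of those in sucrose-fed flies, and Idh3a had 94.0%. Glucosamine replicate 3 had the highest intensity of alphaTry and sucrose replicate 1 the highest of osk. With both of these arrays left out, a setting chosen after the values were seen, none of the 8 passed limma's adjusted p. Of all 10021 tested, 327 passed there. Osk was still 942 in sucrose replicate 2 and alphaTry 290 in glucosamine replicate 2, so leaving these arrays out does not remove such transcripts. In that fit 6 had an unadjusted p under 0.05, a level at which 13.5% of everything tested was lower. With all arrays 7 of the 8 had such a p, beside 16.3% of everything tested. The median difference was −0.64 without both arrays and −0.52 with all arrays. Sucrose replicate 1 was the lowest sucrose array for 5 of the 8 genes, and glucosamine replicate 3 the highest glucosamine array for 4. Leaving out a gene's lowest sucrose or highest glucosamine array widens its difference by arithmetic. The part of gut and ovary transcripts was not tested. Without both arrays Idh3g, Scsalpha1 and ScsbetaG had differences of −0.81, −0.84 and −0.76, with limma adjusted p values of 0.0979, 0.0915 and 0.0900.

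Within the sucrose group the genes did not share a single order of arrays, but sucrose replicate 2 was the highest for 6 of the 8 and sucrose replicate 1 the lowest for 5. Among glucosamine arrays, replicate 1 was the lowest for 5 genes and replicate 3 the highest for 4. Deviations from the group means were then compared between genes over the 6 arrays, as a description. Deviations from a mean of 3 arrays are not independent, so each r rests on fewer than 6 free values and is imprecise. Subunits of the same enzyme ranged widely. Within isocitrate dehydrogenase, Idh3b with Idh3g had a Pearson r of 0.96, while Idh3a had 0.56 with Idh3b and 0.52 with Idh3g. Within succinyl-CoA synthetase, Scsalpha1 with ScsbetaA had 0.96, while ScsbetaG had −0.41 with Scsalpha1 and −0.59 with ScsbetaA. Pairs across enzymes ran from −0.90, for mAcon1 with Mdh1, to 0.82, for Scsalpha1 with Mdh1, and the median over all 28 pairs was −0.02. Glucosamine replicate 3 had the lowest intensity of Idh3b and Idh3g and the highest of Scsalpha1, ScsbetaA, ScsbetaG and Mdh1 within its group. These correlations share the same 6 arrays, whose intensities of alphaTry, osk and Lsp2 also differed. Lsp2 was highest in sucrose replicate 2.

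Other steps of the cycle were listed beside these genes. Of 5 genes of succinate dehydrogenase and fumarase listed, 3 were measured, 2 fell and none rose, beside 8.61% of everything tested that fell. The median log2 difference was −0.55, and −0.03 over all tested. SdhC, of a membrane anchor subunit, had intensities of 864, 872 and 745 in glucosamine arrays and 1399, 1468 and 1435 in sucrose arrays. Its log2 difference was −0.79 ± 0.13 (SE; limma adjusted p = 0.0113). SdhD, of the other anchor subunit, fell by 0.54 (limma adjusted p = 0.0456), and SdhB, of the iron-sulphur subunit, had −0.55 (adjusted p = 0.0782). For all 3 the glucosamine arrays lay below the sucrose arrays, as they did for 20.0% of everything tested.

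Of 9 listed genes of the oxoglutarate and pyruvate dehydrogenase complexes, their regulators and the pyruvate carrier, 7 were tested. Of these, 3 fell and none rose, a share of 42.9% beside the 8.61% of everything tested that fell. The median was −0.50, and −0.03 over all tested. CG5214, whose RefSeq synonym is alpha-KGDHC for the oxoglutarate dehydrogenase complex, had intensities of 1087, 1156 and 1023 in glucosamine arrays and 1802, 1719 and 1811 in sucrose arrays. Each group kept to a narrow range, and the log2 difference was −0.70 ± 0.13 (SE; limma adjusted p = 0.0138). Ogdh, which encodes the first enzyme of the same complex, overlapped between groups, with −0.24 ± 0.15 (SE; adjusted p = 0.327). CG7430, with the RefSeq synonym E3, had −0.50 (adjusted p = 0.0570).

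At the entry to the cycle, Mpc1, a subunit of the carrier that brings pyruvate into mitochondria, had intensities of 1063, 1882 and 1781 in glucosamine arrays and 3175, 4333 and 3563 in sucrose arrays. This was the largest fall of that list, with a log2 difference of −1.25 ± 0.25 (SE; limma adjusted p = 0.0196). Pdk, the kinase that inhibits pyruvate dehydrogenase, fell by 0.66 ± 0.17 (SE; limma adjusted p = 0.0406), and its second probe set fell by 0.49 (adjusted p = 0.0377). The opposing phosphatase gene Pdp had −0.16 (adjusted p = 0.502), and muc, which encodes the E2 subunit of pyruvate dehydrogenase, had −0.27 (adjusted p = 0.319). Both overlapped between groups. A difference between any of these genes and the citrate cycle genes was not tested.

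**Figure D4:**
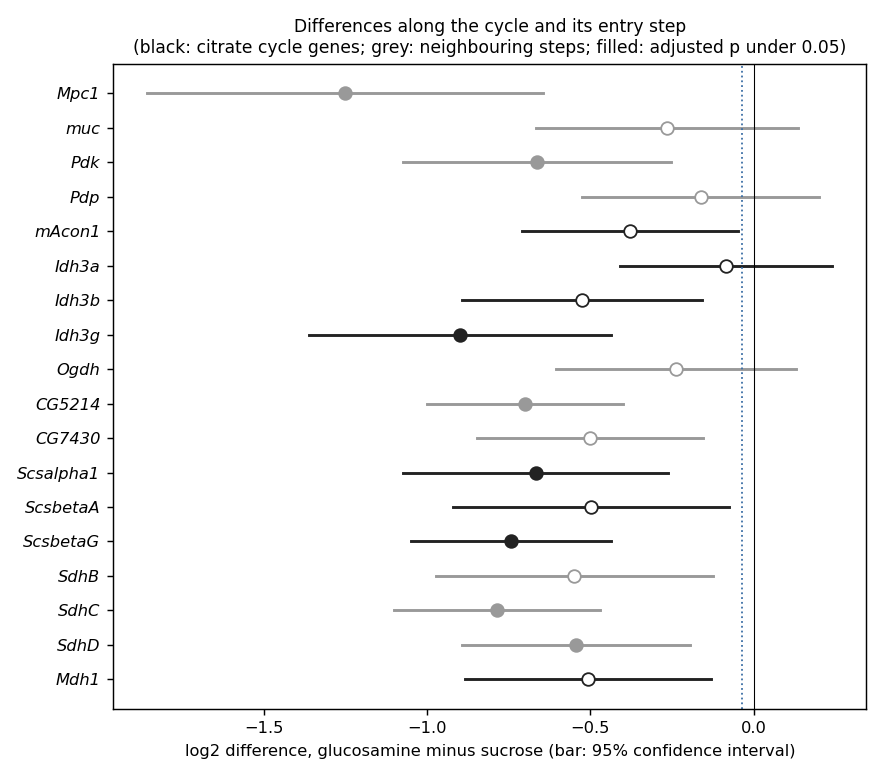
Log2 difference, glucosamine minus sucrose, with its 95% confidence interval, for citrate cycle genes (black) and genes of neighbouring steps (grey). The order is that of the reactions from pyruvate entry to succinate dehydrogenase. The cytosolic Mdh1 is placed last, and the mitochondrial Mdh2 was not measured. Filled points passed an adjusted p of 0.05, the dotted line is the median of all tested genes (−0.03), and all 18 points lie below 0, from −1.25 for Mpc1 to −0.08 for Idh3a.

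Paralogs of the cycle genes contributed little signal. Of 13 listed, 11 were on the array, and 5 of these stayed below an intensity of 16 on every array, namely CG32026, mAcon2, CG10748, Fum2 and SdhAL. Of the 8 tested, limma called none and 1 was lower at an unadjusted p under 0.05, or 12.5%, beside 16.3% of everything tested. Scsalpha2, the paralog of Scsalpha1, had intensities of 16.4, 28.8 and 21.2 in glucosamine arrays and 36.7, 23.1 and 36.0 in sucrose arrays, which overlapped (log2 difference −0.33, adjusted p = 0.280).

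Among 13 measured genes of anaplerosis, cytosolic partners and shuttles, 1 fell and none rose, a share of 7.69% beside the 8.61% of everything tested that fell. At an unadjusted p under 0.05, 6 of the 13 were lower, beside 16.3% of everything tested, and the median was −0.40. ATPCL, which splits exported citrate into acetyl-CoA and oxaloacetate in the cytosol, had intensities of 145, 162 and 134 in glucosamine arrays and 198, 229.9 and 250.3 in sucrose arrays. Its log2 difference was −0.57 ± 0.15 (SE; limma adjusted p = 0.0424). The remaining genes of this paragraph did not pass by their brightest probe set and were named after their values were seen. Gpdh1, the cytosolic enzyme of the glycerol phosphate shuttle, had the largest difference of the list by brightest probe set, −0.995 (limma adjusted p = 0.0655). Its 3 other probe sets had −0.73, −0.93 and −0.88 when tested separately (adjusted p = 0.0441, 0.172 and 0.0857). PCB, pyruvate carboxylase, which makes oxaloacetate, had −0.62 (limma adjusted p = 0.0803). Its dimmer probe set had −1.21 when tested separately (limma adjusted p = 0.0629). Men, malic enzyme, had −0.45 (limma adjusted p = 0.140), while Men-b had 0.19 (adjusted p = 0.634). Idh, the NADP-dependent isocitrate dehydrogenase, had −0.48 (adjusted p = 0.0640). Got1 and Got2, the aminotransferases of the malate-aspartate shuttle, had −0.51 (adjusted p = 0.0975) and −0.39 (adjusted p = 0.181). In the same list aralar1 had 0.06 (limma adjusted p = 0.849). Gdh, glutamate dehydrogenase, which feeds oxoglutarate into the cycle, had 0.01 (adjusted p = 0.977), and Pepck1, which draws oxaloacetate off, had −0.08 (adjusted p = 0.718). The arrays of Men-b, aralar1, Gdh and Pepck1 overlapped between groups.

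**Figure D5:**
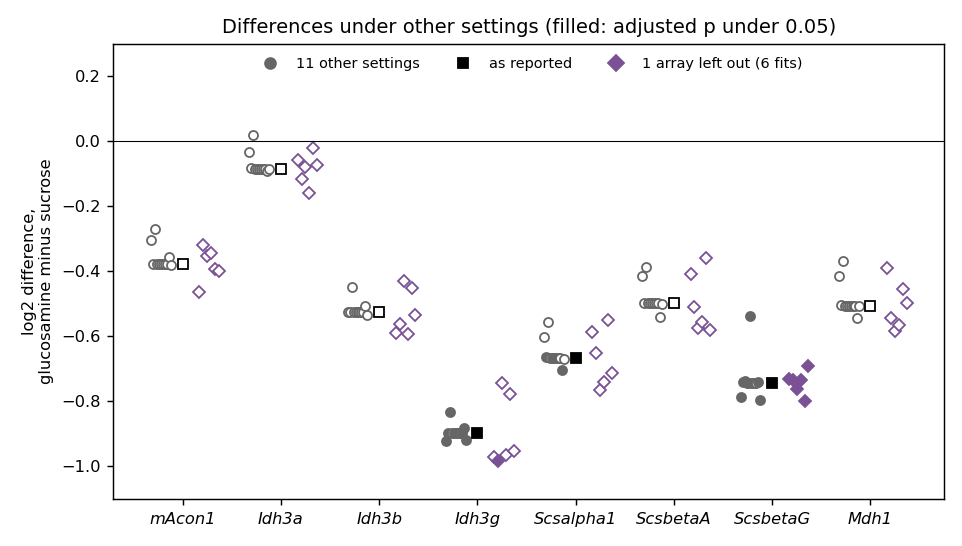
Log2 difference, glucosamine minus sucrose, of each citrate cycle gene as reported (squares), under 11 other settings (circles) and in 6 fits without 1 array (diamonds), filled where the adjusted p was under 0.05. All differences are negative except that of Idh3a under cyclic loess (0.02), and ScsbetaG alone is filled in all 6 fits without 1 array.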

How the data were processed

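The deposited values are linear intensities of Affymetrix probe sets, between 4.32 and 46624. Per the labels' protocols, RNA was purified with Trizol and RNeasy MinElute, and biotinylated cRNA was made by the standard Affymetrix protocol; the probe summary, background correction and normalization are not given in the sources used here. No further normalization was applied. The sample titles gave groups and replicate numbers.

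Of 18952 probe sets, tests omitted 183 controls and 402 annotated with several symbols; 13647 had 1 symbol and 4720 none. All 8 citrate cycle genes matched RefSeq by Entrez identifier. The brightest probe set by mean stood for each gene, and the 40% of the resulting 16702 with the lowest mean were left out, which left 10021. Log2(intensity + 16), which understates changes of dim genes, was tested two-sided with limma 3.58.1 (R 4.3.3, lmFit and eBayes). The fit was also run on simulated data with independent noise for each gene and array. Such data lack deviations that genes share on an array, so they cannot vouch for the calls here. Errors are SD over 3 arrays or the SE of the fit, and the number of arrays limits the precision.

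All 10 citrate cycle genes are named; from the other lists the text takes every tested gene of both neighbouring-step lists and, in the other pathway lists, up to 4 genes past the threshold by smallest p. Further genes of those lists and the markers given by name were chosen after their values were seen. The genes, lists and tests were chosen with earlier results of these data known. Same-numbered arrays of both groups did not deviate together (r of 0.02, −0.12 and −0.05 over all tested genes), so replicate numbers were taken as names only. No 2 arrays were identical. The alternatives were other normalizations, filters, probe set rules, variance models, weights, pseudocounts, a replicate block and left-out arrays. Plots used matplotlib 3.10.9 and pandas 2.3.3 under Python 3.11.15.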

Additional observations from a re-analysis of the deposited data

How the results depend on the processing

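The count of 3 citrate cycle genes that fell was 2 to 4 under 9 of the 11 planned settings that leave out no array. It was 1 with no filter on dim probe sets, where 1313 of the 16702 tested passed, for a cause that was not tested. It was also 1 with the replicate block, where the count over all tested genes was 986, against 1858. It was 1 to 2 without 1 array, where the count over all tested genes was 781 to 1465, and 0 with both glucosamine replicate 3 and sucrose replicate 1 left out, a setting chosen after the values were seen, where 327 of all tested genes passed. Fewer arrays were fitted in these. None of the 8 rose under any setting run. The median difference of −0.52 was −0.42 under cyclic loess, where Idh3a had 0.0188 in place of −0.08 (the cause was not tested), −0.58 to −0.45 without 1 array, and −0.64 without both named arrays. Of the planned settings that leave out no array, ScsbetaG and Idh3g each passed in 10 of 11 and Scsalpha1 in 6. ScsbetaG missed with the replicate block (adjusted p = 0.0522) and Idh3g with no filter (adjusted p = 0.0549). Signal over background limits what the dimmest probe set of ScsbetaG and the paralogs can show.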
